A study of Homo sapiens with 6 samples.

Results

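The 10 genes described here make, break down and regulate the polyamines in U2OS cells, an established human osteosarcoma line. They were chosen by name, as enzymes of polyamine synthesis (ODC1, AMD1, SRM, SMS), regulators of the first enzyme (AZIN1, OAZ1, OAZ2) and enzymes of acetylation and oxidation (SAT1, SMOX, PAOX). All 10 were found among the 57820 annotated genes of the deposited table, each on 1 row, and all 10 passed the filter on low values that left 14889 genes to test. Cells had been given 5 µM NMS-873, an allosteric inhibitor of the ATPase VCP (p97), or 0.05% DMSO, its solvent, for 4 h. There were 3 libraries of polyadenylated RNA for each treatment. Both groups are the same unmodified line in the same medium, and no label tells if the 3 libraries of a group are separate cultures. Every p-value therefore rests only on the spread between these libraries. In limma each gene's variance was drawn towards that of genes of like level (an intensity trend). Its p-values thus do not measure a gene's own spread alone. The comparison asks how these transcripts differ when VCP is inhibited. The VCP transcript itself was at 176, 178 and 179 FPKM with NMS-873 and 151, 147 and 158 FPKM with DMSO, 1.17-fold higher (adjusted p = 0.00122 in limma); FPKM are reads per length of transcript, here scaled between libraries by added spike-in RNA.

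Polyamines (putrescine, spermidine and spermine) are small positively charged molecules that bind RNA and DNA and are needed for cell growth. Ornithine decarboxylase (ODC1) makes putrescine from ornithine, and AMD1 makes decarboxylated S-adenosylmethionine, the donor of the aminopropyl groups that SRM and SMS add to form spermidine and spermine. The pool is held by feedback: polyamines promote translation of the antizymes OAZ1 and OAZ2, which bind ornithine decarboxylase and send it to the proteasome without ubiquitin, and the antizyme inhibitor AZIN1 takes up antizyme. SAT1 acetylates spermidine and spermine for export or for oxidation by PAOX in peroxisomes, while SMOX oxidises spermine directly and releases hydrogen peroxide. ODC1 is a well known target of MYC, the factor named in the title of the study.

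Promoter sequences from RefSeq (build GRCh38.p14, 250 bases before to 50 after an annotated start) are shown for 3 of the genes: ODC1, which carries E-boxes, the sites that MYC and its partner bind, SAT1, with the largest rise, and AMD1, with the largest fall. For ODC1 the second of 2 listed windows (chr2:10447963-10448262, minus strand) is given, for AMD1 the first of 3 (chr6:110874535-110874834, plus strand) and for SAT1 the only 1 (chrX:23782923-23783222, plus strand). Capitals mark every match, on either strand, to the 8 motifs searched, and each line runs 5′ to 3′.
ODC1: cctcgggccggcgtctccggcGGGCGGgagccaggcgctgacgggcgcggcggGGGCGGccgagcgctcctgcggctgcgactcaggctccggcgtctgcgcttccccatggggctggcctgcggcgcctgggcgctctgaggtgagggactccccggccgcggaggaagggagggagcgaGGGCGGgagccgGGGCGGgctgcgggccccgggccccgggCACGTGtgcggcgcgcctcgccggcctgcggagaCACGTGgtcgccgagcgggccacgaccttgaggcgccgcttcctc
SAT1: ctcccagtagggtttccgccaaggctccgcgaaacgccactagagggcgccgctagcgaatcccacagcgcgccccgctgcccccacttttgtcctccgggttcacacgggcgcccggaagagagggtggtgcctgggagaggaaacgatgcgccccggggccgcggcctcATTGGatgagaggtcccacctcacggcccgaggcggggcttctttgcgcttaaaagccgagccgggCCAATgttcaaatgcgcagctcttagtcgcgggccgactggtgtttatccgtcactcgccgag
AMD1: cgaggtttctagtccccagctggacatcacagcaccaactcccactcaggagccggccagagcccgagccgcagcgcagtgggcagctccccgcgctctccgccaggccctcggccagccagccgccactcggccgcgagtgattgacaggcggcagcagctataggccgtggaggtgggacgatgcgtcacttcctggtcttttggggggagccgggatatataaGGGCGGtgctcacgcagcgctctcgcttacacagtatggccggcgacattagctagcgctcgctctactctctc
The motifs were the E-box (CACGTG), the cAMP response element (TGACGTCA), the core of the composite element of C/EBP and ATF factors (TGATGNAA), the core of the antioxidant response element (TGACNNNGC), the core of the unfolded protein response element (TGACGTGG), the CCAAT box (CCAAT), the TATA box (TATAAA) and the GC box (GGGCGG). The ODC1 window held E-boxes starting at -29 and 6 relative to the annotated start, besides 4 GC boxes. The other listed ODC1 window held no E-box, so the window shown is the 1 that has them. The SAT1 window held CCAAT boxes starting at -79 and -13, and that of AMD1 a GC box at -24. Windows were listed for 7 of the 10 genes and not for AZIN1, SMOX and PAOX. Of the 7 genes, 2 (ODC1 and SRM) had a window with an E-box, which 7.26% of all 35114 windows hold. A CCAAT box stood in 5 of the 7 (34.6% of all windows) and a GC box in 6 (45.0% of all windows). These counts are of genes with a match in any of their windows, 10 in all, while the shares are per window. The 2 are therefore not on the same scale, and a gene with several windows has more room for a match. None of the 7 held the C/EBP-ATF core, the cAMP response element or the unfolded protein response core in these windows; 3.62%, 1.85% and 0.729% of all windows do. The antioxidant response core stood in the other ODC1 window (13.3% of all windows) and a TATA box in that of OAZ1 (11.5%). The E-box and the unfolded protein response core share the letters ACGTG, and that core and the cAMP response element share TGACGT. These matches describe letters and are not evidence of binding.

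Each library held between 21132311 and 22488952 reads in annotated genes. NMS-873 replicate 1 stood apart from its group: its gene reads gave a chi-square of 7.43 and 7.90 per degree of freedom against NMS-873 replicates 2 and 3, compared with 1.79 between those and 1.52 to 3.58 among DMSO libraries. The labelled cell type was checked on 7 osteoblastic and mesenchymal markers, whose summed level was 1024 to 1070 FPKM with NMS-873 and 1151 to 1193 with DMSO. COL1A2 was nearly absent, at no more than 0.0591 FPKM in any library, while VIM, SPARC and COL1A1 were all above 100. The 8 markers of other cell types that were read summed to 3.44 to 4.23 FPKM with NMS-873 and 3.91 to 4.10 with DMSO, and 2 of them (CD3E and MYOD1) were at 0 in every library. The highest were the epithelial KRT14, at 1.71 to 2.35 FPKM over the 6 libraries, and EPCAM, at 1.18 to 1.61. KRT14 was thus above RUNX2 in both groups. Bulk RNA cannot tell fewer cells with a transcript from less of it per cell.

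With NMS-873 the transcripts of the catabolic enzymes SAT1 and SMOX were higher, 2.36-fold and 1.69-fold, and that of the antizyme inhibitor AZIN1 was slightly higher, 1.14-fold. AMD1 was 1.32-fold lower and the antizyme gene OAZ2 1.22-fold lower. ODC1, SRM, SMS, OAZ1 and PAOX did not pass the test, an adjusted p under 0.05 in limma over all genes tested. So 3 of 10 genes rose and 2 fell, a share near the background, since 47.9% of all genes tested were called, 14.9% higher and 33.0% lower. The median log2 fold change was -0.03 over the 10 genes and -0.10 over all genes tested. With factors taken from the genes in place of the spike-in RNA (gene-based scaling), the median gene moved to 0.00078 and ODC1 was called higher too. Then 4 of the 10 rose and 2 fell, beside 46.1% of all genes called, 25.3% higher and 20.9% lower. The groups did not overlap for 5 of the 10 genes, 3 higher and 2 lower, beside 53.6% of all genes tested, 16.4% higher and 37.2% lower. In the authors' deposited table the adjusted p was under 0.05 for SAT1, SMOX, AZIN1, AMD1 and OAZ2 and for none of the other 5, against 33.2% of all genes with a value there.

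**Figure D1:**
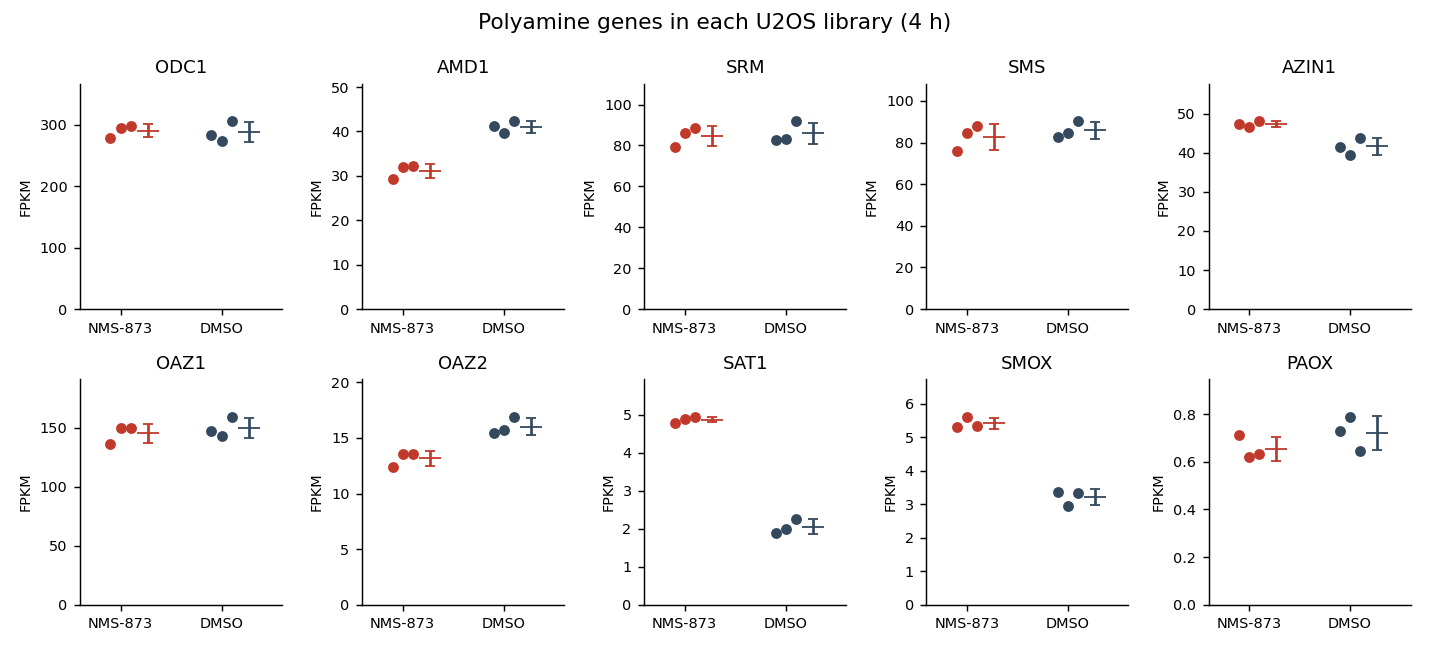
FPKM (vertical axis, from 0) of each of the 10 polyamine genes in the 3 NMS-873 libraries (red points, left) and the 3 DMSO libraries (dark points, right), with the mean and SD beside them. SAT1 and SMOX lie higher in every NMS-873 library, AMD1 and OAZ2 lower, and ODC1, SRM, SMS, OAZ1 and PAOX overlap.

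Levels per length spanned a wide range. With NMS-873 the order was ODC1, OAZ1, SRM, SMS, AZIN1, AMD1, OAZ2, SMOX, SAT1 and PAOX, and with DMSO it was the same. The mean levels of SRM and SMS did not differ beyond their spread in either group, though SMS was below SRM within each NMS-873 library. AZIN1 and AMD1 were at 47.3 ± 0.779 and 31.1 ± 1.63 FPKM with NMS-873 (mean ± SD, n = 3 libraries, as for all levels here) and at 41.6 ± 2.13 and 41.0 ± 1.35 with DMSO, where they too did not differ beyond their spread. SMOX and SAT1 were closer to each other with NMS-873 than with DMSO. ODC1 had a higher mean level than 99.3% of the genes tested, while SMOX, SAT1 and PAOX had a higher one than 49.7%, 45.0% and 17.5%. The 4 synthesis enzymes summed to 462, 498 and 507 FPKM with NMS-873 and 490.2, 481 and 530.3 FPKM with DMSO, with overlap. The sum of SAT1, SMOX and PAOX was 10.8, 11.1 and 10.9 FPKM with NMS-873 and 6.00, 5.73 and 6.26 FPKM with DMSO. Those 3 enzymes made up 1.62%, 1.55% and 1.499% of the 10-gene sum with NMS-873 and 0.857%, 0.836% and 0.828% with DMSO.

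ODC1 (ENSG00000115758.8; chromosome 2, 10580094 to 10588630, hg19), the rate-limiting enzyme of the pathway, was at 278, 296 and 298 FPKM in the NMS-873 libraries and at 284, 274 and 306 FPKM in the DMSO libraries. The groups overlapped, and the log2 fold change was 0.01 (SE 0.0616, 95% interval -0.11 to 0.14, adjusted p = 0.869 in limma). As a fold that interval ran from 0.928 to 1.10. With gene-based scaling ODC1 was called higher, at a log2 fold change of 0.12 (adjusted p = 0.00624 in limma), so its call depends on the scale. MYC itself was at 159, 164 and 167 FPKM with NMS-873 and 67.6, 64.7 and 71.8 FPKM with DMSO, a 2.40-fold rise (adjusted p = 6.65e-62 in limma). ODC1 lay within the spread between libraries on the deposited scale where MYC was well outside it.

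AMD1 (ENSG00000123505.10; chromosome 6, 111195973 to 111216916) was the 1 synthesis enzyme that changed on the deposited scale. It was at 29.2, 31.9 and 32.2 FPKM with NMS-873 and 41.2, 39.6 and 42.3 FPKM with DMSO. Every NMS-873 library was below every DMSO library, and the log2 fold change was -0.40 (SE 0.0541, 95% interval -0.51 to -0.29, adjusted p = 2.81e-11 in limma). Relative to the median gene the difference was -0.30 on the log2 scale. Of all genes tested, 2433 had a lower log2 fold change. AMD1P1, a pseudogene row, had no read.

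SRM (ENSG00000116649.5; chromosome 1, 11114641 to 11120081), spermidine synthase, was at 79.2, 86.2 and 88.7 FPKM with NMS-873 and 82.6, 83.2 and 91.9 FPKM with DMSO. SMS (ENSG00000102172.11; chromosome X, 21958691 to 22025798), spermine synthase, was at 76.0, 84.4 and 88.0 FPKM with NMS-873 and 82.7, 84.4 and 90.2 FPKM with DMSO. Both pairs of groups overlapped, and in both genes NMS-873 replicate 1 was the lowest library. The log2 fold change was -0.02 for SRM (95% interval -0.13 to 0.09, adjusted p = 0.777) and -0.05 for SMS (95% interval -0.16 to 0.05, adjusted p = 0.437), both in limma. With gene-based scaling both signs turned, to 0.08 and 0.05, and neither passed.

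Of the antizyme genes, OAZ2 fell and OAZ1 did not pass; the difference between them was not tested. OAZ1 (ENSG00000104904.8; chromosome 19, 2269485 to 2273487) was at 136, 150.1 and 149.5 FPKM with NMS-873 and 147, 143 and 159 FPKM with DMSO, with overlap and a log2 fold change of -0.04 (SE 0.0576, adjusted p = 0.551 in limma). It too turned sign with gene-based scaling, to 0.06. OAZ2 (ENSG00000180304.10; chromosome 15, 64979772 to 64995480), the less abundant of them, was at 12.4, 13.6 and 13.5 FPKM with NMS-873 and 15.5, 15.7 and 16.9 FPKM with DMSO. OAZ2 was lower in all 3 NMS-873 libraries than in any DMSO library, with a log2 fold change of -0.28 (SE 0.0546, 95% interval -0.39 to -0.18, adjusted p = 2.87e-06 in limma). Relative to the median gene that is -0.18, and it passed with gene-based scaling too (adjusted p = 3.08e-04 in limma).

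AZIN1 (ENSG00000155096.9; chromosome 8, 103838585 to 103906092) resembles ornithine decarboxylase but has no decarboxylase activity of its own. It was at 47.4, 46.5 and 48.1 FPKM with NMS-873 and 41.6, 39.5 and 43.8 FPKM with DMSO. Although small, the difference left no overlap between the groups: the log2 fold change was 0.19 (SE 0.0546, 95% interval 0.08 to 0.29, adjusted p = 0.00246 in limma). Relative to the median gene it was 0.29. A row on the opposite strand that overlaps AZIN1 had a mean normalised count of 13.4, beside 6247 for AZIN1; of the rows overlapping any of the 10 genes this was the most abundant.

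SAT1 (ENSG00000130066.12; chromosome X, 23801290 to 23804343) rose the most. It was at 4.79, 4.90 and 4.94 FPKM with NMS-873 and 1.90, 2.00 and 2.27 FPKM with DMSO. The lowest NMS-873 library was above the highest DMSO library. The log2 fold change was 1.24 (SE 0.102, 95% interval 1.04 to 1.44, adjusted p = 1.64e-25 in limma), and 157 of all genes tested had a larger one. These values rest on 261 to 273 reads per library with NMS-873 and 101 to 125 with DMSO. By the likeness of their values over the 6 libraries, among 12079 genes whose mean normalised count reached 50, the genes nearest to SAT1 were RSBN1L-AS1 and RCAN1. Their root mean square differences from it were 0.0396 and 0.0408 on the log2 scale, and RSBN1L-AS1 is an antisense RNA whose reads may not be separable from those of its partner.

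SMOX (ENSG00000088826.13; chromosome 20, 4101627 to 4168394), spermine oxidase, was at 5.31, 5.61 and 5.35 FPKM with NMS-873 and 3.37, 2.94 and 3.34 FPKM with DMSO. Its groups were well apart, with a log2 fold change of 0.75 (SE 0.0733, 95% interval 0.61 to 0.90, adjusted p = 1.56e-19 in limma), on 334 to 619 reads per library. PAOX (ENSG00000148832.10; chromosome 10, 135192695 to 135205198), the other oxidase, was low, at 0.712, 0.618 and 0.632 FPKM with NMS-873 and 0.730, 0.788 and 0.646 FPKM with DMSO. With only 31 to 42 reads per library its interval was wide, -0.53 to 0.26 around a log2 fold change of -0.14 (adjusted p = 0.606 in limma). That interval includes a fall of the size seen in AMD1, so such a fall is not excluded.

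**Figure D2:**
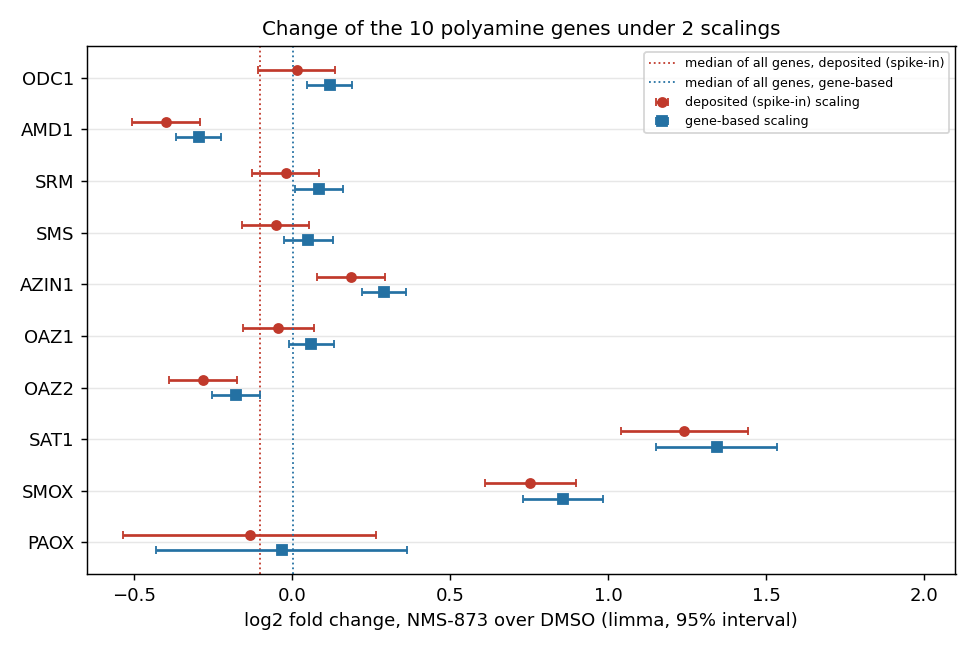
Log2 fold change of NMS-873 over DMSO (horizontal axis) with its 95% interval for each of the 10 genes, under the deposited spike-in scaling (red circles) and gene-based scaling (blue squares); dotted lines mark the median of all genes under each. SAT1, SMOX, AZIN1, AMD1 and OAZ2 keep intervals away from 0 under both, whereas ODC1 lies at 0.01 under one and 0.12 under the other.

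Without NMS-873 replicate 1, the library that stood apart, SAT1 was 2.38-fold, SMOX 1.70-fold and AZIN1 1.14-fold higher, and AMD1 and OAZ2 were at log2 fold changes of -0.36 and -0.24. These 5 genes still passed and the other 5 did not. SAT1, SMOX, AZIN1, AMD1 and OAZ2 also kept their direction and their call under each of the 17 alternatives tried, other scalings, filters and libraries left out among them.

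Ratios between 2 genes within a library do not depend on the scaling. The pairs were chosen with the values known, so the ratios are a description with no test. The ratio of OAZ2 to OAZ1 in FPKM was 0.0908, 0.0905 and 0.0906 with NMS-873 and 0.105, 0.110 and 0.106 with DMSO. AZIN1 relative to OAZ1 stood at 0.348, 0.310 and 0.322 with NMS-873 and 0.282, 0.277 and 0.275 with DMSO. Both ratios separated the groups, the first lower and the second higher with NMS-873. AMD1 relative to SRM was 0.369, 0.370 and 0.363 with NMS-873, against 0.498, 0.476 and 0.461 with DMSO. For ODC1 relative to OAZ1 the values were 2.04, 1.97 and 2.00 with NMS-873 and 1.93, 1.92 and 1.92 with DMSO, a mean log2 difference of 0.06 with no overlap. SMS relative to SRM overlapped between the groups, at 0.960 to 0.993 with NMS-873 and 0.982 to 1.01 with DMSO. SMOX relative to PAOX was 7.46, 9.08 and 8.46 with NMS-873 and 4.62, 3.73 and 5.18 with DMSO, with 31 to 42 reads of PAOX in a library.

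**Figure D3:**
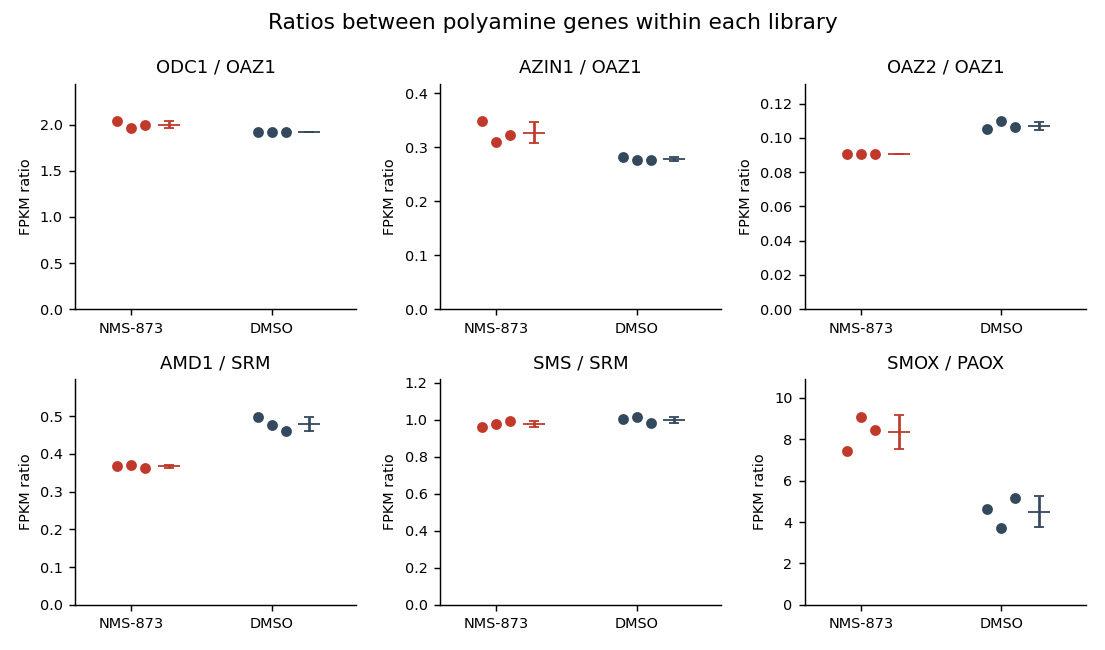
Ratio of the FPKM of 2 polyamine genes within each library (vertical axis, no unit, from 0) for 6 pairs, with NMS-873 libraries in red on the left, DMSO libraries in dark on the right, and the mean and SD beside them. The OAZ2 to OAZ1 and AMD1 to SRM ratios lie lower and the AZIN1 to OAZ1 ratio higher in every NMS-873 library, while SMS to SRM overlaps.

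Around these 10 genes, 5 lists of related genes were read from the same fit. Of 37 members found, 29 were tested, of which 3 rose and 8 fell, near the background of 14.9% higher and 33.0% lower over all genes tested. Their median log2 fold change was -0.07, beside -0.10 for all genes tested.

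Close relatives of the 10 genes did not pass. ADC (now named AZIN2, a second antizyme inhibitor), the antizyme gene OAZ3 and SAT2, a relative of SAT1, gave 0 calls of 3 in limma, 0 at an unadjusted p under 0.05 and 0 with voom. ADC and OAZ3 were named with their values known. They had only 25 to 35 and 7 to 13 reads per library. Their 95% intervals for the log2 fold change were wide, -0.51 to 0.34 and -0.49 to 0.95. Both intervals include a fall of the size seen in AMD1, so such a fall is not excluded in either gene. SAT2, the most abundant of the 3, was at 6.23, 6.60 and 6.45 FPKM with NMS-873 and 6.47, 6.54 and 5.42 FPKM with DMSO. Its groups thus overlapped where those of SAT1 did not.

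In the supply of arginine and ornithine, the precursors of putrescine, 2 of 7 tested genes rose and 1 fell, beside 14.9% and 33.0% of all genes. SLC7A1, the main importer of arginine and other cationic amino acids, was at 72.1, 69.2 and 69.9 FPKM with NMS-873 and 43.0, 41.1 and 42.6 FPKM with DMSO, 1.67-fold higher (log2 fold change 0.74, adjusted p = 8.73e-29 in limma). All 3 NMS-873 libraries lay far above the DMSO libraries. ASS1, which makes argininosuccinate on the way to arginine, rose by 0.32 on the log2 scale, and SLC7A2, another cationic amino acid transporter, fell 1.19-fold; this pair was chosen for naming after the values had been seen. The arginases and ornithine aminotransferase give ornithine: ARG2 and OAT were tested and did not pass, and ARG1 had no read. With gene-based scaling ARG2, OAT and ASL were called higher as well, and 5 of 7 rose and 1 fell, beside 25.3% and 20.9% of all genes on that scale. ARG1, ARG2, OAT and ASL, too, were named with their values known.

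Of 7 tested genes of polyamine transport, 1 rose and 3 fell, where 14.9% and 33.0% of all genes did. SLC3A2, the heavy chain of several amino acid exchangers that has also been linked to polyamine export, was at 110.2, 97.9 and 103.5 FPKM with NMS-873 and 84.4, 80.8 and 83.9 FPKM with DMSO, a log2 fold change of 0.32 (adjusted p = 3.58e-07 in limma). SLC12A8, at the low level of 0.467 ± 0.0764 FPKM with NMS-873 and 0.768 ± 0.0348 with DMSO, fell 1.65-fold (adjusted p = 7.46e-06 in limma). SLC18B1, a vesicular polyamine transporter, fell 1.34-fold, and ATP13A2, which exports polyamines from lysosomes, fell 1.13-fold; both names were picked with the values in view. With gene-based scaling ATP13A2 no longer passed (log2 fold change -0.07) and ATP13A3, a related transporter, was called higher, so that 2 rose and 2 fell, where 25.3% and 20.9% of all genes did. ATP13A3 was likewise picked with its values in view. ATP13A2 also missed the threshold without NMS-873 replicate 2 (adjusted p = 0.0722 in limma). It missed it too with TMM factors and without the intensity trend (adjusted p = 0.261 and 0.0524 in limma).

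Genes that make and recycle the methyl and aminopropyl donor showed 3 lower and 0 higher of 8 tested (0 higher also at an unadjusted p under 0.05 and with voom). Over all genes tested 33.0% were lower and 14.9% higher. MAT2A, which makes S-adenosylmethionine, the substrate of AMD1, was at 56.1, 49.9 and 50.3 FPKM with NMS-873 and 74.3, 71.3 and 73.0 FPKM with DMSO, 1.40-fold lower (log2 fold change -0.49, SE 0.0547, adjusted p = 2.13e-15 in limma; named after its values were seen). The groups were apart, as they were for AMD1. MRI1, an enzyme of the salvage route that turns methylthioadenosine, the by-product of SRM and SMS, back to methionine, fell 1.45-fold, to 2.42 ± 0.304 FPKM with NMS-873 against 3.49 ± 0.204 FPKM with DMSO (adjusted p = 2.83e-07 in limma). ADI1 of the same route fell 1.13-fold (adjusted p = 0.0153 in limma) and was named after its values were seen. Its call was lost with gene-based scaling, without NMS-873 replicate 1 (adjusted p = 0.0712 in limma) and without DMSO replicate 3 (adjusted p = 0.206 in limma). Only 2 genes of the list were called lower with TMM factors, on log2 FPKM and without the intensity trend. The authors' own adjusted p for ADI1 was 0.0671 (DESeq2). AHCY, the most abundant of the list, was at 82.7 ± 3.62 FPKM with NMS-873 and 85.9 ± 4.02 FPKM with DMSO and did not pass. With gene-based scaling MAT2A and MRI1 were still called lower and ENOPH1, another salvage enzyme that was named after its values were seen, was called higher; 20.9% of all genes were lower and 25.3% higher on that scale.

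The hypusine pathway uses spermidine to modify the translation factor eIF5A. Of its 4 genes 1 fell and 0 rose in limma (0 rose at an unadjusted p under 0.05 and with voom), beside 33.0% and 14.9% of all genes. EIF5A was at 219, 237 and 236 FPKM with NMS-873 and 247, 247 and 270.1 FPKM with DMSO, a log2 fold change of -0.14 (adjusted p = 0.0371 in limma). That is close to the median gene, and the call was lost with gene-based scaling and when any of NMS-873 replicates 1 and 2 and DMSO replicates 1 and 3 was left out (adjusted p = 0.126, 0.0649, 0.072 and 0.193 in limma). The call for EIF5A was also lost with TMM factors, with no count minimum, on log2 FPKM and without the intensity trend. The modifying enzymes DHPS and DOHH did not pass, but DHPS was called higher with gene-based scaling (log2 fold change 0.18, adjusted p = 0.00241 in limma), where 25.3% of all genes were. Both enzymes were named after their values were seen.

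**Figure D4:**
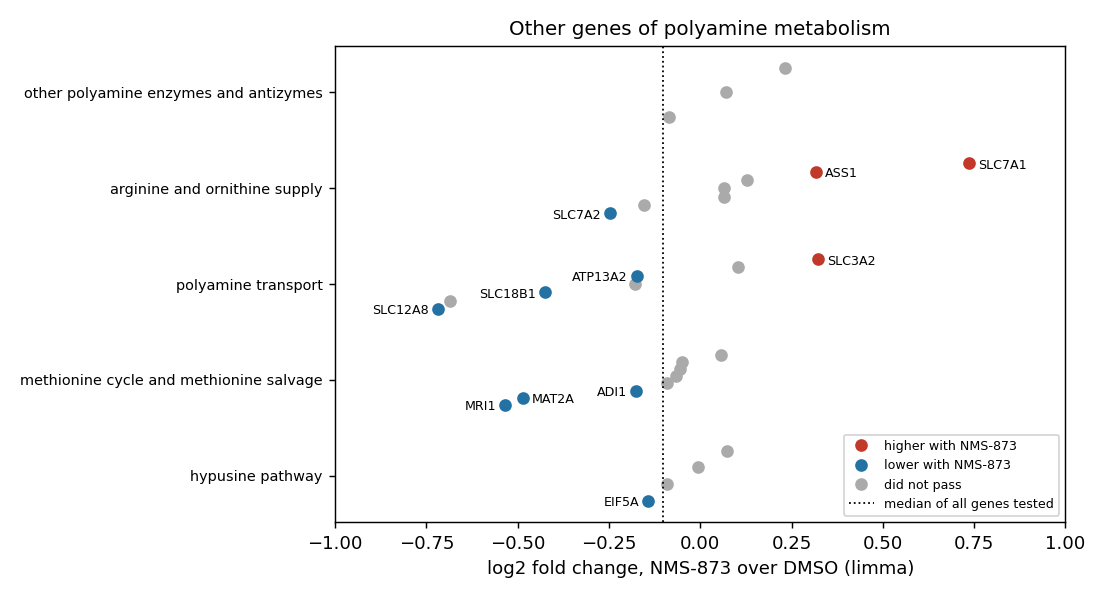
Log2 fold change of NMS-873 over DMSO (horizontal axis) for each of the 29 tested genes of 5 related lists (rows), with genes that passed limma in red (higher) or blue (lower) and named, others in grey, and the median of all genes tested as a dotted line. SLC7A1 stands furthest to the right at 0.74, and SLC12A8, MRI1 and MAT2A furthest to the left among genes that passed.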

How the data were processed

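The deposited table gives 6 sample columns whose header names no unit. The authors deposited the table under a name that speaks of normalised counts, but the values were read here as FPKM, an inference from the values: the factor between them and the deposited mean normalised count follows gene length (Pearson r = 0.950 on log values over 14561 genes, GENCODE 29 exon lengths). The mean normalised count, a signal in reads after scaling, and likewise a log2 ratio of NMS-873 over DMSO and its adjusted p-value, are the authors' own, per the file headers. Counting with featureCounts 1.5.1, DESeq2 1.16.1 and build hg19 come from the submitters' processing notes; aligner and strand setting are not given in the sources used here. The kit was stranded, per the labels' protocols.

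Normalised counts were rebuilt for each gene as FPKM times the ratio of its deposited mean count to its mean FPKM. Multiplied by the library's size factor, 100.0% came within 0.001 of whole reads. In all 6 libraries that factor equals the median of ratios over the ERCC spike-in rows (92, of which 80 had a read), so differences are relative to spike-in RNA, and an error in its amount would shift all genes alike. Genes with a mean of at least 10 were fitted in limma 3.58.1 (R 4.3.3) on log2(normalised count + 1), treatment as the only term and an intensity trend, two-sided, Benjamini-Hochberg over all genes tested. Fold changes are on that scale and understate those of low genes. Intervals rest on the variance drawn towards genes of like level, not on a gene's spread over the 6 libraries alone. The script was tested on simulated data. Alternatives were other scalings, filters, pseudocounts, variance models, a replicate block and leaving out each library; edgeR was not used, since the deposited unit is not counts.

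The genes and lists were chosen with earlier results of these data known. Named were all 10 genes, list members past the threshold with a log2 fold change of at least 0.5 in size, the most abundant tested gene of each list, MYC, and for members with a change of at least 1 the 2 genes nearest in log2 value, and VCP; others are said to be named after their values were seen. No pair of replicates agreed within sampling noise (lowest chi-square per degree of freedom 1.52). Besides the cell type markers given, a further marker of other cell types is not reported here.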

Additional observations from a re-analysis of the deposited data

How the results depend on the processing

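SAT1, SMOX, AZIN1, AMD1 and OAZ2 kept direction and call in all 17 alternatives, at log2 fold changes of 1.19 to 1.37, 0.69 to 0.87, 0.15 to 0.30, -0.42 to -0.29 and -0.31 to -0.17. Their p-values were far larger without the intensity trend. The adjusted p in limma was then 1.51e-04 for SAT1 and 6.45e-04 for SMOX. For AZIN1, AMD1 and OAZ2 it was 0.0447, 0.00398 and 0.0173. The counts of the 10 genes called were 3 higher and 2 lower throughout, except 4 higher with gene-based and 5 higher with TMM factors, which add ODC1 (0.12 and 0.13) and, with TMM, SRM. Gene-based and TMM factors also turned the sign of SRM (0.0835 and 0.0927), SMS (0.0512 and 0.0604), OAZ1 (0.0601 and 0.0693), AHCY (0.0492 and 0.0583) and the median of all genes (0.00078 and 0.0099). With them the calls over all genes were 3760 higher and 3108 lower, and 3920 higher and 2952 lower, in place of 2217 and 4910. A change of factors shifts the log2 fold changes of all genes nearly alike, and gene-based factors centre on the median gene by construction. Why they differ from the spike-in factors was not tested. Quantile normalisation turned PAOX to 0.0694. Leaving out 1 library at a time gave ODC1 -0.0204 to 0.0585, SRM -0.0547 to 0.0287, SMS -0.10 to 0.0076, OAZ1 -0.0771 to 0.0018 and SAT2 -0.0186 to 0.12, none of them called, and 1870 to 2406 higher and 4005 to 4957 lower calls over all genes. With the replicate number as a block the 10 genes gave 3 higher and 2 lower, and all genes 2352 and 5255. Same-numbered deviations correlated at 0.07, -0.02 and 0.12, and those with different numbers at -0.15 to 0.10. With 3 libraries in a group these values cannot tell if the numbers pair the libraries. Depth limits PAOX, whose reads number 31 to 42 in a library.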
